A study of Mus musculus with 5 samples.

Results

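The genes described are 36 genes of macrophages and other leukocytes, read in whole embryonic mouse kidney. They were taken by name from a list drawn up with earlier results of these data known, and all 36 were among the 32793 genes of the deposited tables and among the 15885 genes with enough counts to test. On the basis of textbook use, 19 were placed as resident macrophage genes (Csf1r, Adgre1, Cx3cr1, P2ry12, Fcrls, Trem2, C1qa, C1qb, C1qc, Mrc1, Cd163, Msr1, Stab1, Cd68, Pf4, F13a1, Hpgds, Fcgr1, Aif1). The other 17 were placed as general leukocyte genes, which monocytes, neutrophils, lymphocytes or mast cells also use (Tyrobp, Fcer1g, Fcgr3, Spi1, Cybb, Ncf4, Lyz2, Ctss, Ptprc, Cd53, Cd52, Laptm5, Itgam, Cd14, Cd83, Coro1a, Lcp1).

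RNA was taken from kidneys at embryonic day 15.5 and sequenced in bulk. The 2 NICD_mut libraries carried Six2TGC/+, a transgene that makes Cre recombinase in nephron progenitors, and RosaN1ICD∆PEST, a Rosa26 allele that expresses activated Notch1, without its PEST domain, once Cre has acted. The 3 NICD_wt libraries were from littermates that had no Cre. The comparison asks how activated Notch1 in nephron progenitors alters gene expression in the kidney, and what the driver alone does cannot be told apart from what activated Notch1 does. The strain is not given in the labels. Whether the libraries are separate animals or litters is not stated, so p-values measure only how far these samples spread, and that spread may be technical.

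Tissue macrophages settle in the kidney before birth, from yolk sac and fetal liver progenitors, and persist there. They depend on the receptor Csf1r and its ligands Csf1 and Il34, take up dying cells through scavenger and Fc receptors, and make the complement protein C1q. The transcription factor PU.1, encoded by Spi1, binds a purine-rich element near many myeloid genes. Macrophages and other leukocytes are of the blood lineage, whereas nephron progenitors, in which the driver acts, are not.

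Libraries held 17361823 to 21356447 counts. Notch1 was higher in NICD_mut, by 1.24 on the log2 scale, and Six2, the marker of nephron progenitors, had 7 and 6 counts in the NICD_mut libraries against 2411 to 3015 in the NICD_wt libraries, so both went with the labels. Libraries 1 of both groups held skeletal muscle transcripts: 8 muscle genes summed to 3460 CPM (counts relative to library size) in NICD_mut 1 and 145 in NICD_wt 1, against 14.8 in NICD_mut 2 and 5.33 and 5.12 in NICD_wt 2 and 3. A fit without these 2 libraries is therefore given beside the counts and beside each gene whose call it ends. With only NICD_mut 2 left, that fit takes the spread from the NICD_wt libraries.

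Most of the genes were higher in NICD_mut kidneys, and the resident macrophage genes more so than the general leukocyte genes. In the edgeR quasi-likelihood test over all genes with Benjamini-Hochberg adjustment, 27 of 36 genes rose, Cd83 fell, and 8 did not pass the threshold of 0.05. Of all genes tested, 23% rose and 24.8% fell. The median log2 change (NICD_mut minus NICD_wt) was 1.14 over the 36 genes and 0.01 over all tested genes. In bulk tissue, more cells of a type and more RNA per cell cannot be told apart.

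Among the 19 resident macrophage genes 16 rose, none fell and 3 did not pass (Cd163, F13a1 and Aif1), with changes from 0.61 to 2.62 and a median of 1.35. Among the 17 general leukocyte genes 11 rose, 1 fell and 5 did not pass (Ncf4, Lyz2, Ptprc, Cd52 and Itgam), with changes from -0.84 to 1.32 and a median of 0.94. A rise of at least 2-fold was called for 13 resident macrophage genes and 5 general leukocyte genes, against 7.93% of all tested genes. In CPM, both NICD_mut libraries stood above all 3 NICD_wt libraries for 17 of 19 and 13 of 17 genes, where 32.9% of all tested genes did. They stood below all 3 for 2 general leukocyte genes, Ptprc and Cd83, where 34.2% of all tested genes did. Without NICD_mut 1 and NICD_wt 1 the resident macrophage genes called higher numbered 13, the general leukocyte genes 9, and the medians were 1.34 and 0.89. Without NICD_wt 2 alone, 7 general leukocyte genes were called higher.

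**Figure D1:**
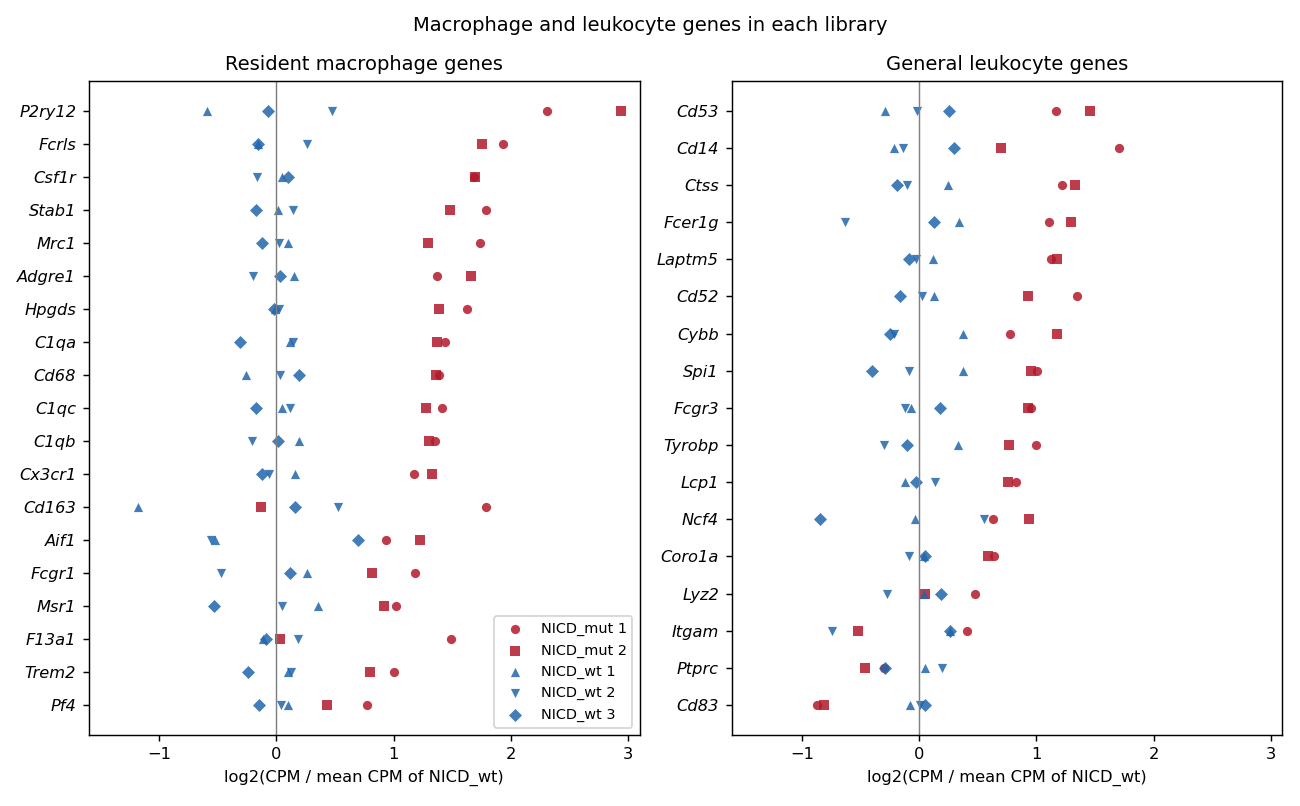
Level of each gene in each library, as log2 of its CPM over the mean CPM of NICD_wt (horizontal axis), for resident macrophage genes (left) and general leukocyte genes (right). Red marks are the 2 NICD_mut libraries and blue marks the 3 NICD_wt libraries; red lies to the right of blue for 17 of 19 and 13 of 17 genes, and to the left for Ptprc and Cd83.

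**Figure D2:**
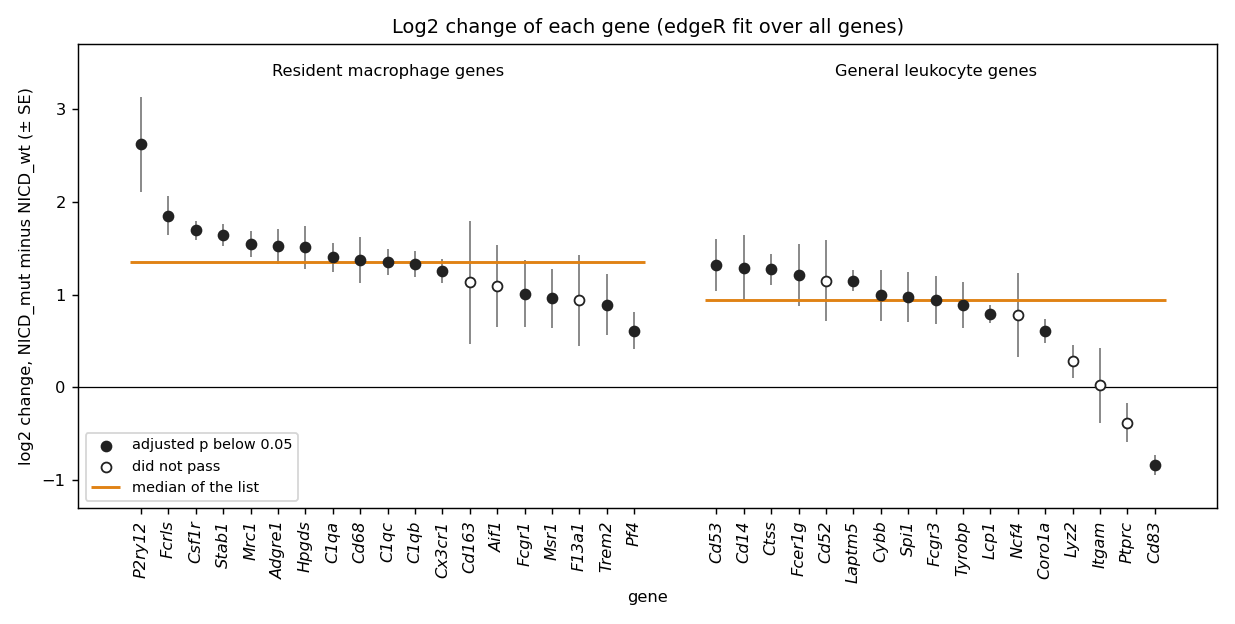
Log2 change of each gene, NICD_mut minus NICD_wt, with a standard error derived from the edgeR test. Filled points passed an adjusted p of 0.05. The orange lines are the list medians, 1.35 for the resident macrophage genes and 0.94 for the general leukocyte genes.

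Promoter sequences are shown for 4 of the genes that rose with small adjusted p, as these hold the core of the PU.1 element, GAGGAA, on either strand. Each runs from 250 bases before to 50 bases after the transcription start, 5′ to 3′ in the direction of the gene, from RefSeq on GRCm38.p6, and the capitals mark GAGGAA or its reverse complement TTCCTC. Laptm5, a lysosomal membrane protein of blood cells, lies on the plus strand (chr4:130913066-130913365). Mrc1, the mannose receptor, lies on the plus strand (chr2:14229164-14229463). Stab1, a scavenger receptor, lies on the minus strand (chr14:31168592-31168891), as does C1qb, the B chain of C1q (chr4:136886151-136886450).
Laptm5: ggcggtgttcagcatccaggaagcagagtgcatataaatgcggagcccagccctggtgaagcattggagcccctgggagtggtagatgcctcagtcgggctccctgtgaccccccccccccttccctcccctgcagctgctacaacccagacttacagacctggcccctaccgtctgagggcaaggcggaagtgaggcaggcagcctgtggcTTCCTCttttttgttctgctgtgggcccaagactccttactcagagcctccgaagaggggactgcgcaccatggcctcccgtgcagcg
Mrc1: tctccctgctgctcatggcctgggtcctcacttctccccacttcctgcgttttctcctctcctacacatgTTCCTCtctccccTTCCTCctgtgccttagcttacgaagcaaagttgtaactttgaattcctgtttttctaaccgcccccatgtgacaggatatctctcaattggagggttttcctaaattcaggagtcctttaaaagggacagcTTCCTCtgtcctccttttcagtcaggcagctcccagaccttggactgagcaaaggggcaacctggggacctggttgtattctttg
Stab1: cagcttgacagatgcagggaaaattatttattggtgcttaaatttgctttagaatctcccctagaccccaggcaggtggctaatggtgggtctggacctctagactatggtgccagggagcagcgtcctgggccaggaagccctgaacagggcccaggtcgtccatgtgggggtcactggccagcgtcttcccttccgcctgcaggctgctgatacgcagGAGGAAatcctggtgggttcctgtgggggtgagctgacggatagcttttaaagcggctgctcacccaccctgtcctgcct
C1qb: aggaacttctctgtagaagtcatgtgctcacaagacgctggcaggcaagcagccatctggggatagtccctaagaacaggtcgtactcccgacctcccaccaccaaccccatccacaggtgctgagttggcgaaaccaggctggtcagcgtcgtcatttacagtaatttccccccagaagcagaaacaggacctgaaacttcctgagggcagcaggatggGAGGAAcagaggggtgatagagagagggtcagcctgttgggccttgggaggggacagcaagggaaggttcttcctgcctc

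The motif began 38 bases before the start site in Laptm5, 30 bases before it in Stab1 and C1qb, and 180, 167 and 35 bases before it in Mrc1. RefSeq promoters were matched for 26 of the 36 genes. GAGGAA or TTCCTC was found in 19 of these 26 (73.1%), in 12 of 15 resident macrophage genes (80%) and in 7 of 11 general leukocyte genes (63.6%). The share over all 27025 genes with a promoter of the same length was 31.3%, and 30.5% over the genes tested here. The core of the element bound by RBPJ, the DNA-binding partner of activated Notch, was searched as TGGGAA or TTCCCA. It was found in 6 of 26 genes (23.1%), against 28.3% of all genes. The motifs share the letters GGAA, but the same 6 bases cannot match both. A match describes the letters only and shows no binding.

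The surface receptors that define macrophages all rose, 6 of 6, against 23% of all tested genes, with a median log2 change of 1.61. Csf1r, the receptor on which macrophage survival depends, stood at 66.3 and 66.7 CPM in NICD_mut 1 and 2 and at 21.3, 18.4 and 22.1 CPM in NICD_wt 1 to 3. The groups were far apart and the NICD_mut pair nearly equal. The rise was 3.23-fold (log2 1.69, SE 0.10, edgeR adjusted p = 3.84e-06). Exons of Csf1r share 873 bases with Hmgxb3 on the opposite strand, and the strand setting of the counts is not given in the sources used here. Hmgxb3 itself had 1373 and 1320 counts in NICD_mut and 1403, 1670 and 1294 in NICD_wt.

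Adgre1, which encodes the macrophage antigen F4/80, stood at 11.5 and 14.1 CPM in NICD_mut and at 4.93, 3.88 and 4.55 in NICD_wt. All NICD_wt values were low and close together. It rose 2.87-fold (log2 1.52, SE 0.19, edgeR adjusted p = 0.000233). Cx3cr1, the fractalkine receptor, stood at 27.3 and 30.4 CPM in NICD_mut and at 13.5, 11.6 and 11.1 in NICD_wt. It rose 2.39-fold with no overlap of the groups (log2 1.25, SE 0.13, edgeR adjusted p = 7.69e-05).

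P2ry12, an ADP receptor best known from microglia, was scarce, with 32 and 47 counts in NICD_mut and 4, 9 and 5 in NICD_wt. It had the largest log2 change of the 36 genes and also a wide error, 2.62 with SE 0.51 (edgeR adjusted p = 0.00283). Fcrls, an Fc receptor-like protein also known from microglia, stood at 11.8 and 10.4 CPM in NICD_mut and at 2.77, 3.7 and 2.76 in NICD_wt. That is a rise of 3.60-fold (log2 1.85, SE 0.21, edgeR adjusted p = 0.000155). Trem2, a lipid receptor that signals through Tyrobp, stood at 3 and 2.61 CPM in NICD_mut and at 1.61, 1.64 and 1.27 in NICD_wt. The groups did not overlap, but its call was marginal (log2 0.89, SE 0.33, edgeR adjusted p = 0.0497). It did not pass when any 1 of the 5 libraries was left out, with log2 changes of 0.79 without NICD_mut 1, 0.98 without NICD_mut 2, and 0.94, 0.96 and 0.79 without NICD_wt 1, 2 and 3. Without both NICD_mut 1 and NICD_wt 1 it was 0.83 (edgeR adjusted p = 0.197).

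The 3 chains of C1q, which join into the recognition molecule of the classical complement pathway, rose by nearly the same factor. Their genes are neighbours on chromosome 4 (mm10, minus strand): C1qb at 136880129-136886187, C1qc at 136889804-136893065 and C1qa at 136895917-136898803. C1qa stood at 21.2 and 20.2 CPM in NICD_mut and at 8.51, 8.66 and 6.33 in NICD_wt. The matching values were 27.4 and 26.4 against 12.2, 9.26 and 10.8 CPM for C1qb. For C1qc they were 22.0 and 20.0 against 8.51, 8.94 and 7.31 CPM. In each chain the NICD_mut pair was close together and clear of NICD_wt. The rises were 2.64-fold for C1qa (log2 1.40, SE 0.16), 2.51-fold for C1qb (1.33, SE 0.14) and 2.54-fold for C1qc (1.35, SE 0.14), with edgeR adjusted p-values of 0.000164, 8.94e-05 and 9.39e-05. In TPM, which corrects for gene length, C1qa ran at 0.756 and 0.744 of C1qb in NICD_mut and at 0.682, 0.911 and 0.574 in NICD_wt. C1qc ran at 0.811 and 0.765 of C1qb in NICD_mut and at 0.705, 0.975 and 0.686 in NICD_wt. The proportions of the chains in NICD_mut lay within the range of NICD_wt.

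Of the 5 scavenger receptors 4 rose, against 23% of all tested genes, and Cd163 did not pass. Stab1, which clears modified proteins and is also made by sinusoidal endothelium, had the highest CPM of the 36 genes, 167 and 135 in NICD_mut and 48.9, 53.5 and 42.9 in NICD_wt. It rose 3.12-fold (log2 1.64, SE 0.12, edgeR adjusted p = 6.96e-05). Its exons share 112 bases with Nt5dc2 on the opposite strand, whose counts were lower in NICD_mut (2377 and 2287) than in NICD_wt (4309, 4382 and 3680). Mrc1 stood at 52.1 and 38.3 CPM in NICD_mut and at 16.7, 15.8 and 14.3 in NICD_wt. NICD_mut 1 was the higher of the pair, and both lay above every NICD_wt library (log2 1.54, SE 0.14, edgeR adjusted p = 5.17e-05). Cd68, an endosomal glycoprotein of phagocytes, stood at 6.61 and 6.46 CPM in NICD_mut and at 2.11, 2.57 and 2.88 in NICD_wt (log2 1.37, SE 0.25, edgeR adjusted p = 0.00173). Msr1, the class A scavenger receptor, stood at 4.41 and 4.09 CPM in NICD_mut and at 2.77, 2.25 and 1.5 in NICD_wt, a smaller and less certain rise (log2 0.96, SE 0.32, edgeR adjusted p = 0.0334). It did not pass without NICD_mut 1, NICD_wt 2 or NICD_wt 3, where its log2 change was 0.91, 0.99 and 0.76.

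Cd163, the receptor that takes up haemoglobin bound to haptoglobin, was the member of this group whose NICD_mut libraries differed most. It stood at 3.94 and 1.04 CPM in NICD_mut 1 and 2 and at 0.503, 1.64 and 1.27 in NICD_wt 1 to 3. NICD_mut 2 lay inside the NICD_wt range, and the log2 change of 1.13 had an SE of 0.66 (edgeR adjusted p = 0.20). The change was -0.14 without NICD_mut 1, and 1.78 without NICD_mut 2.

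Among secreted products, F13a1, the A chain of coagulation factor XIII, behaved like Cd163. It stood at 44.0 CPM in NICD_mut 1 but at 16.0 in NICD_mut 2, within the NICD_wt values of 14.5, 17.8 and 14.8. Its log2 change was 0.94 (SE 0.49, edgeR adjusted p = 0.206). The change was 0.03 without NICD_mut 1 and 1.48 without NICD_mut 2. Cd163 and F13a1 were the members more than 2-fold apart between NICD_mut 1 and 2 when 0.5 CPM was added to each value. That is 2 of 36 genes (5.56%), against 4.53% of all tested genes. NICD_mut 1 is the library with most muscle RNA, and the part of that RNA in these levels was not tested.

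Hpgds, which makes prostaglandin D2, stood at 7.36 and 6.26 CPM in NICD_mut and at 2.37, 2.43 and 2.36 in NICD_wt, the tightest control values of the list. It rose 2.85-fold (log2 1.51, SE 0.23, edgeR adjusted p = 0.000782). Pf4, a chemokine of platelets and of embryonic macrophages, stood at 8.68 and 6.86 CPM in NICD_mut and at 5.44, 5.24 and 4.60 in NICD_wt. The groups did not overlap, and its rise of 1.52-fold was the smallest of the resident macrophage genes (log2 0.61, SE 0.20, edgeR adjusted p = 0.0357). Pf4 did not pass without NICD_mut 1 (log2 0.42) or without NICD_wt 1, 2 or 3 (0.66, 0.63 and 0.54). Without NICD_mut 1 and NICD_wt 1 together it was 0.47 (edgeR adjusted p = 0.20).

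Fcgr1, the high-affinity receptor for IgG, stood at 3.24 and 2.52 CPM in NICD_mut and at 1.71, 1.03 and 1.55 in NICD_wt. All NICD_mut values were above NICD_wt (log2 1.01, SE 0.36, edgeR adjusted p = 0.0457). The call was lost without NICD_mut 1 (log2 0.81) and without NICD_wt 1, 2 or 3 (1.16, 0.81 and 1.07). Leaving out NICD_mut 1 and NICD_wt 1 together gave 0.97 (edgeR adjusted p = 0.156). Aif1, which encodes the actin-binding protein Iba1, stood at 2.91 and 3.55 CPM in NICD_mut and at 1.06, 1.03 and 2.47 in NICD_wt. NICD_wt 3 was the high control. The log2 change of 1.09 (SE 0.44) missed the threshold (edgeR adjusted p = 0.0666), and without NICD_wt 3 it was 1.62 and passed (edgeR adjusted p = 0.0156). With all libraries Aif1 passed under a stricter filter (edgeR adjusted p = 0.0487). It also passed in limma on log2(TPM + 1) and log2(TPM + 0.1) (adjusted p = 0.0405 and 0.0443), but not in limma without a filter (0.0527).

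The general leukocyte genes were less uniform. Tyrobp and Fcer1g encode the ITAM adaptors through which myeloid Fc and Trem receptors signal, and both rose. Tyrobp stood at 7.27 and 6.21 CPM in NICD_mut and at 4.58, 2.95 and 3.39 in NICD_wt (log2 0.89, SE 0.25, edgeR adjusted p = 0.0182). Its call was lost without NICD_mut 1 (log2 0.77), NICD_wt 2 (0.76) or NICD_wt 3 (0.84). Fcer1g stood at 4.55 and 5.18 CPM in NICD_mut and at 2.67, 1.36 and 2.30 in NICD_wt (log2 1.21, SE 0.33, edgeR adjusted p = 0.0145). Fcgr3, a low-affinity IgG receptor that pairs with Fcer1g, stood at 4.83 and 4.74 CPM in NICD_mut and at 2.37, 2.29 and 2.82 in NICD_wt (log2 0.94, SE 0.26, edgeR adjusted p = 0.0147). None of these 3 genes had overlapping groups, and Fcgr3 missed the threshold without NICD_mut 1 and NICD_wt 1 together (log2 0.89, edgeR adjusted p = 0.0584).

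Spi1 stood at 6.85 and 6.61 CPM in NICD_mut and at 4.43, 3.23 and 2.59 in NICD_wt. The NICD_mut pair was nearly equal and above the spread of the controls (log2 0.97, SE 0.27, edgeR adjusted p = 0.0148). It just missed the threshold without NICD_wt 2 (log2 0.94) or without NICD_wt 3 (0.81), at edgeR adjusted p = 0.0522 and 0.052.

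Of 4 genes of the phagocyte oxidase and the lysosome 2 rose, against 23% of all tested genes. Ctss, the lysosomal protease cathepsin S, stood at 15.9 and 17.1 CPM in NICD_mut and at 8.10, 6.36 and 5.98 in NICD_wt (log2 1.27, SE 0.17, edgeR adjusted p = 0.000347). Cybb, the catalytic subunit of the oxidase, stood at 5.86 and 7.74 CPM in NICD_mut and at 4.43, 2.95 and 2.88 in NICD_wt (log2 0.99, SE 0.27, edgeR adjusted p = 0.0151). The call of Cybb was lost without NICD_mut 2 (log2 0.77), NICD_wt 2 (0.89) or NICD_wt 3 (0.88). Ncf4, a cytosolic subunit of the same oxidase, stood at 1.92 and 2.37 CPM in NICD_mut and at 1.21, 1.82 and 0.690 in NICD_wt and did not pass (log2 0.78, SE 0.45, edgeR adjusted p = 0.186).

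Lyz2, the lysozyme of macrophages and neutrophils, stood at 20.3 and 15.1 CPM in NICD_mut and at 15, 12.1 and 16.6 in NICD_wt. The groups overlapped and the log2 change was 0.28 (SE 0.18, edgeR adjusted p = 0.22). Without NICD_mut 2 the log2 change was 0.47. Reads of Lyz2 and its near copy Lyz1 can be assigned to either, and Lyz1 was low throughout, between 0.421 and 0.956 CPM.

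Of 7 leukocyte surface and membrane genes 3 rose, 1 fell and 3 did not pass, where 23% of all tested genes rose and 24.8% fell. Ptprc, which encodes the pan-leukocyte antigen CD45, stood at 6.47 and 5.77 CPM in NICD_mut and at 8.26, 9.12 and 6.50 in NICD_wt. Both NICD_mut libraries lay below the controls, NICD_mut 1 by a narrow margin, and the difference did not pass (log2 -0.38, SE 0.21, edgeR adjusted p = 0.161). In TPM the same gene read 2.47 and 3.16 in NICD_mut and 2.59, 2.81 and 2.01 in NICD_wt. There the groups overlapped, and limma on log2(TPM + 1) gave a log2 difference of 0.14 that did not pass.

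Cd83, a membrane glycoprotein of activated dendritic and B cells that some epithelia also make, was the only one of the 36 genes that fell. It stood at 14.0 and 14.6 CPM in NICD_mut and at 24.3, 25.8 and 26.5 in NICD_wt. The groups were far apart and each was tight. The decrease was 1.79-fold (log2 -0.84, SE 0.11, edgeR adjusted p = 0.000302).

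Laptm5 stood at 32.9 and 34.2 CPM in NICD_mut and at 16.4, 14.8 and 14.2 in NICD_wt, with the smallest adjusted p of the general leukocyte genes (log2 1.15, SE 0.11, edgeR adjusted p = 5e-05). Cd53, a tetraspanin of leukocytes, stood at 4.55 and 5.57 CPM in NICD_mut and at 1.66, 2.01 and 2.42 in NICD_wt (log2 1.32, SE 0.28, edgeR adjusted p = 0.00465). It had the largest rise of this list. Cd14, the co-receptor for bacterial lipopolysaccharide, stood at 7.04 and 3.50 CPM in NICD_mut and at 1.86, 1.96 and 2.65 in NICD_wt (log2 1.29, SE 0.35, edgeR adjusted p = 0.014). NICD_mut 1 read 2.01 times NICD_mut 2, and without NICD_mut 1 the log2 change of Cd14 was 0.70 and did not pass (edgeR adjusted p = 0.17). Cd14 also missed the threshold without NICD_wt 1 (log2 1.20) or NICD_wt 2 (1.23), and without NICD_mut 1 and NICD_wt 1 together (0.60, edgeR adjusted p = 0.266).

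Cd52, a short glycoprotein on lymphocytes and monocytes, stood at 1.64 and 1.23 CPM in NICD_mut and at 0.705, 0.655 and 0.575 in NICD_wt. The groups did not overlap, but at 10 to 35 counts per library the log2 change of 1.15 (SE 0.44) did not pass (edgeR adjusted p = 0.0594). Cd52 passed in the 3 limma fits of TPM, with adjusted p-values of 0.0022 to 0.0047. Itgam, the CD11b integrin chain of monocytes, neutrophils and many macrophages, stood at 8.82 and 4.64 CPM in NICD_mut and at 8, 3.98 and 8 in NICD_wt. Its values spread widely within both groups, and the log2 change was 0.02 (SE 0.40, edgeR adjusted p = 0.975). Without NICD_mut 1 it was -0.52, and without NICD_wt 2 it was -0.25. In the annotation used for coordinates, exons of Itgam share 3450 bases with Gm49368 on the same strand, a gene that was not analysed here.

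Both cytoskeletal genes of leukocytes rose, by less than the list median. Coro1a, an actin-binding coronin, stood at 16.5 and 15.9 CPM in NICD_mut and at 10.9, 9.97 and 11.0 in NICD_wt (log2 0.61, SE 0.13, edgeR adjusted p = 0.00469). Lcp1, the actin-bundling protein L-plastin, stood at 45.5 and 43.4 CPM in NICD_mut and at 23.6, 28.2 and 25.2 in NICD_wt (log2 0.79, SE 0.10, edgeR adjusted p = 0.000239).

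The lists were next summed within each library. The 19 resident macrophage genes summed to 493 and 414 CPM in NICD_mut and to 170, 170 and 155 in NICD_wt. The means were 453 ± 55.7 (SD, n = 2) and 165 ± 8.48 (SD, n = 3), a ratio of 2.75. The 17 general leukocyte genes summed to 205 and 194 CPM in NICD_mut and to 138, 130 and 134 in NICD_wt. Their means were 199 ± 7.66 (SD, n = 2) and 134 ± 4.42 (SD, n = 3), a ratio of 1.49.

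The ratio of the 2 sums within a library, unlike the sums, does not depend on scaling between libraries. Dividing the resident macrophage sum by the general leukocyte sum gave 2.41 and 2.13 in NICD_mut and 1.22, 1.31 and 1.15 in NICD_wt. In TPM the same ratio was 1.48 and 1.42 in NICD_mut and 0.929, 1.02 and 0.886 in NICD_wt. On both scales the NICD_mut libraries lay above all NICD_wt libraries. The difference between the list medians was 0.41 on the log2 scale, and between 0.28 and 0.51 under the alternatives. The lists were drawn up with results known, so neither the ratio nor the difference was tested.

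Some of the genes are also made by cells that are not leukocytes. Leaving out 10 such genes (Stab1, Mrc1, Hpgds, Pf4, F13a1, Cd83, Cd68, Lyz2, Cd14 and Lcp1) left 13 in each list. The CPM ratio of the sums was then 1.75 and 1.74 in NICD_mut and 1.08, 1.18 and 1.16 in NICD_wt. The resident macrophage sum was 2.74-fold and the general leukocyte sum 1.78-fold that of NICD_wt. As a description of a pair chosen after its values were seen, Csf1r over Ptprc in TPM was 12.8 and 9.59 in NICD_mut and 3.51, 2.80 and 4.69 in NICD_wt.

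**Figure D3:**
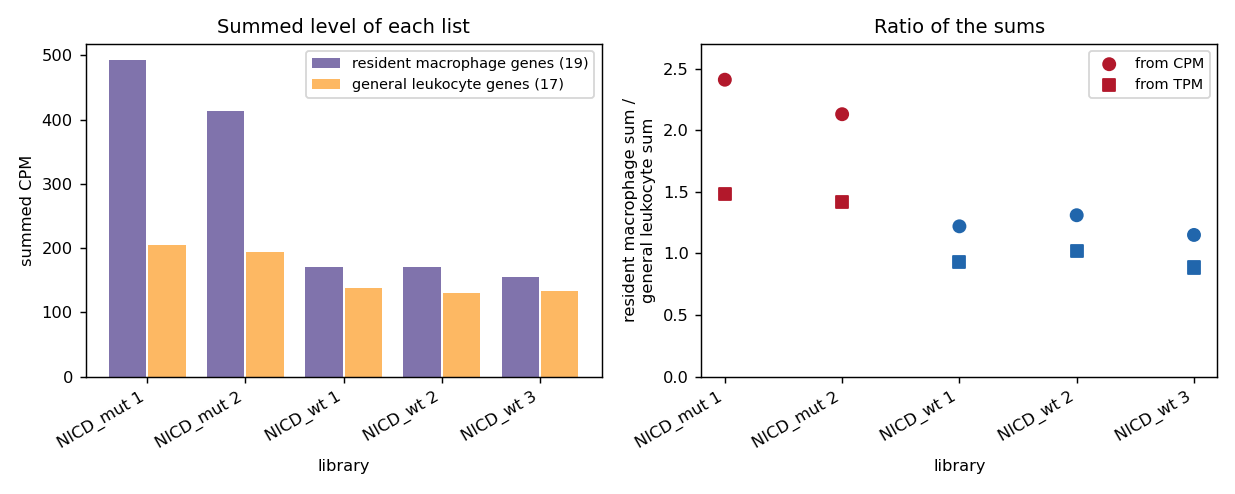
Left, summed CPM of the 19 resident macrophage genes and the 17 general leukocyte genes in each library. Right, the ratio of these sums in each library from CPM (circles) and from TPM (squares), with NICD_mut in red and NICD_wt in blue; the CPM ratio is 2.13 and 2.41 in NICD_mut and 1.15 to 1.31 in NICD_wt.

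Levels of different genes were compared in TPM. In NICD_wt the highest means were Lyz2 at 28.2 ± 4.04, Pf4 at 24.1 ± 2.59, Cd83 at 21 ± 0.99 and C1qb at 20.6 ± 2.46 TPM (SD, n = 3). Neighbours in this order lay within each other's spread. In NICD_mut the 3 C1q chains led, C1qb at 56.3 ± 2.14, C1qc at 44.4 ± 3.51 and C1qa at 42.3 ± 2.06 TPM (SD, n = 2), of which C1qc and C1qa were not apart. Stab1 followed at 40.5 ± 8.09, Pf4 at 39.7 ± 5.69 and Lyz2 at 37.3 ± 8.10 TPM (SD, n = 2), which overlapped. Csf1r went from position 13 in NICD_wt to position 8 in NICD_mut, and Cd83 from 3 to 17. Ptprc went from position 26 to 31 at nearly the same TPM, 2.47 ± 0.413 (SD, n = 3) and 2.82 ± 0.488 (SD, n = 2). At the low end stood P2ry12, at 0.263 ± 0.101 TPM in NICD_wt (SD, n = 3) and 1.54 ± 0.417 in NICD_mut (SD, n = 2).

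A test of the TPM table gave a like picture. In limma on log2(TPM + 1), 35 of the genes passed the filter (Cd163 did not), 29 rose and Cd83 fell. Of all genes tested that way, 28.9% rose and 18.7% fell, and their median log2 difference was 0.11. The medians of the lists were 1.32 for resident macrophage genes and 0.88 for general leukocyte genes. The pseudocount of 1 understates the change of low genes such as P2ry12.

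**Figure D4:**
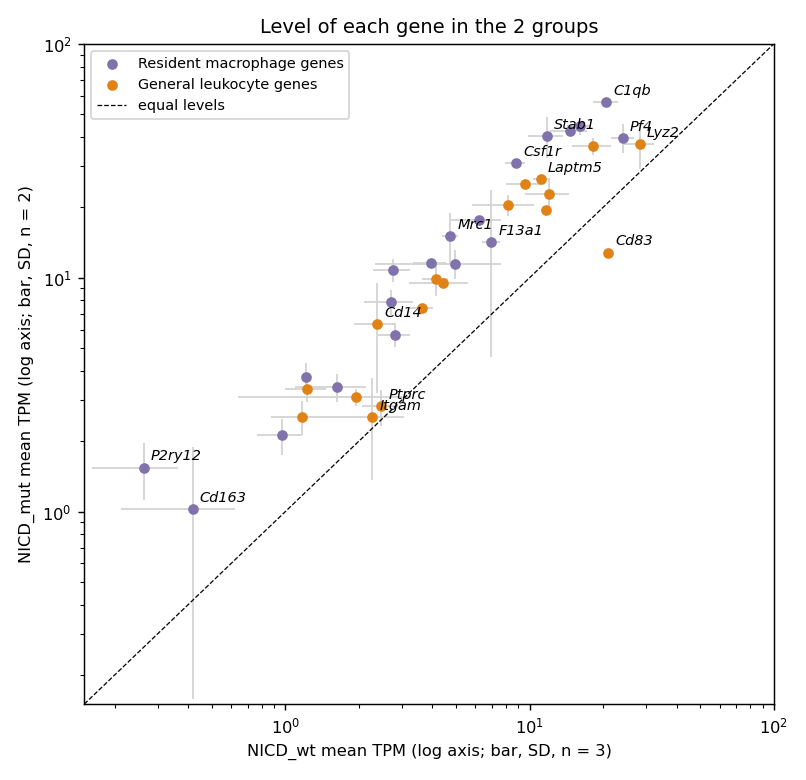
Mean TPM of each gene in NICD_wt (horizontal, log axis) and NICD_mut (vertical, log axis), with bars of 1 SD over 3 and 2 libraries and a dashed line of equal levels. Cd83 is the gene below the line; Ptprc, Itgam and Lyz2 lie near it, and the C1q chains and Stab1 stand at the top.

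Both ligands of Csf1r rose as well. Csf1, made by stromal and epithelial cells, stood at 40.7 and 36.0 CPM in NICD_mut and at 21.2, 17.7 and 15.5 in NICD_wt (log2 1.08, SE 0.14, edgeR adjusted p = 0.000257). Il34, the second ligand, stood at 7.32 and 7.20 CPM in NICD_mut and at 1.16, 1.59 and 0.806 in NICD_wt, a 6.06-fold rise (log2 2.60, SE 0.31, edgeR adjusted p = 0.0002). Neither ligand had overlapping groups.

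Further macrophage genes, 28 that are not among the 36, went the same way, but this list too was drawn up with earlier results known. Of these 19 rose, none fell and 9 did not pass, with a median of 1.10. Over all tested genes 23% rose and 24.8% fell. The 4 with the smallest adjusted p were Maf (log2 2.24), Dab2 (0.71), Irf8 (1.03) and Tfec (1.22), of which Maf and Dab2 are also made by kidney epithelium or stroma. Of 28 further leukocyte genes 15 rose, Arhgdib fell (log2 -0.46) and 12 did not pass, with a median of 0.76. Among those that rose were Nckap1l (log2 1.79), Cyba (0.64) and Fyb (1.47).

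Markers of other blood cells moved in both directions. Of all tested genes 23% rose and 24.8% fell. Few genes could be tested in each of these lists and in the lymphocyte lists, so their counts were not read as a result about those cells. Of 6 monocyte genes 2 could be tested, where Ccr2 rose (log2 0.90) and Plac8 did not pass (0.18) at 23.6 and 33.2 CPM in NICD_mut and 25, 24.9 and 25.5 in NICD_wt. Of 7 neutrophil genes tested 2 rose (Csf3r, log2 1.26, and Mpo, 1.53), Prtn3 fell (-0.94) and 4 did not pass. The neutrophil list summed to 16.6 and 9.57 CPM in NICD_mut and to 8.96, 9.31 and 7.36 in NICD_wt. Of 6 mast cell genes tested none rose, Ms4a2 fell (-1.92) and 5 did not pass. Of 5 megakaryocyte genes tested Gp1bb rose (1.63) and 4 did not pass.

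Lymphocyte genes gave little to read. The T cell genes Cd3e and Cd3d had 0 counts in every library, as did the B cell gene Ms4a1, where 3 counts would be 0.14 to 0.173 CPM. Other untested T and NK cell genes had a few. Cd3g had 7 and 2 counts in NICD_mut and 0 in every NICD_wt library. Nkg7 had 8 and 2 against 0, 1 and 0, and Klrb1c 16 and 3 against 4, 1 and 3. Cd2 had 3 and 0 against 0, 0 and 0, and Cd8a 0 and 1 against 1, 6 and 0. The other untested B cell genes had at most 12 counts in a library. Of 5 T and NK cell genes tested Cd4 rose (log2 2.02), Gata3 (-1.51) and Lck (-0.92) fell and 2 did not pass. Gata3, also a gene of the ureteric epithelium, gave 28.7 and 22.4 of the 36.4 and 30 CPM of this list in NICD_mut, and 67.2, 73.5 and 77.3 of 76, 83.1 and 86.4 CPM in NICD_wt. The only B cell gene tested, Cd79b, had a log2 change of -0.16 and did not pass.

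Dendritic cells and some macrophages use MHC class II genes to present antigen. The list of dendritic cell and MHC class II genes had the highest median log2 change of the blood cell lists, 1.63. Of 6 genes tested in that list 4 rose, where 23% of all tested genes did: H2-Ab1 (log2 2.12), Cd74 (3.07), H2-Aa (1.92) and Ciita (1.32). H2-Eb1 (1.35) and the dendritic cell gene Clec9a (0.61) did not pass. The dendritic cell genes Flt3, Itgax, Xcr1 and Siglech had too few counts to test. The list summed to 75.4 and 37.0 CPM in NICD_mut and to 11.3, 9.64 and 13.1 in NICD_wt. NICD_mut 1 was high in it, and both NICD_mut libraries were well above NICD_wt.

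Lists for other cells were read beside the macrophage genes, against the 23% of all tested genes that rose. All 10 endothelial genes rose, with a median log2 change of 0.68, and summed to 1500 and 1920 CPM in NICD_mut and to 835, 906 and 852 in NICD_wt. Of 7 lymphatic and sinusoidal endothelial genes Stab2 (2.23), Flt4 (0.41) and Lyve1 (1.39) rose, Pdpn fell (-0.76) and 3 did not pass. Lyve1 is also counted in the list of further macrophage genes. Of 10 erythroid genes 2 rose, among them Alas2 (1.05), and 8 did not pass, with sums of 159 and 156 CPM in NICD_mut and 106, 68.1 and 65.0 in NICD_wt. Alas2 alone gave 95.3 and 101 CPM of the erythroid sums in NICD_mut and 53.1, 47.0 and 41.5 in NICD_wt. Of 7 hepatocyte genes tested Fgb (4.46) and Serpina1a (2.01) rose and 5 did not pass, with sums of 140 and 141 CPM against 68.2, 97.6 and 58.7. Fgb alone gave 50.8 and 60.3 CPM of these sums in NICD_mut and 3.02, 2.39 and 2.13 in NICD_wt, while Alb (0.02) and Afp (-0.18) did not pass. Of the liver macrophage list only Slc40a1 could be tested (0.38, rose). Clec4f and Vsig4 had 0 counts in every library, whereas the other untested genes had a few. Spic had 5 and 20 counts in NICD_mut and 7, 7 and 6 in NICD_wt. Cd5l had 4 and 6 against 2, 5 and 2, and Marco 3 and 1 against 4, 2 and 0. The part of blood content, vessels and other tissue in the rise of the macrophage genes was not tested.

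**Figure D5:**
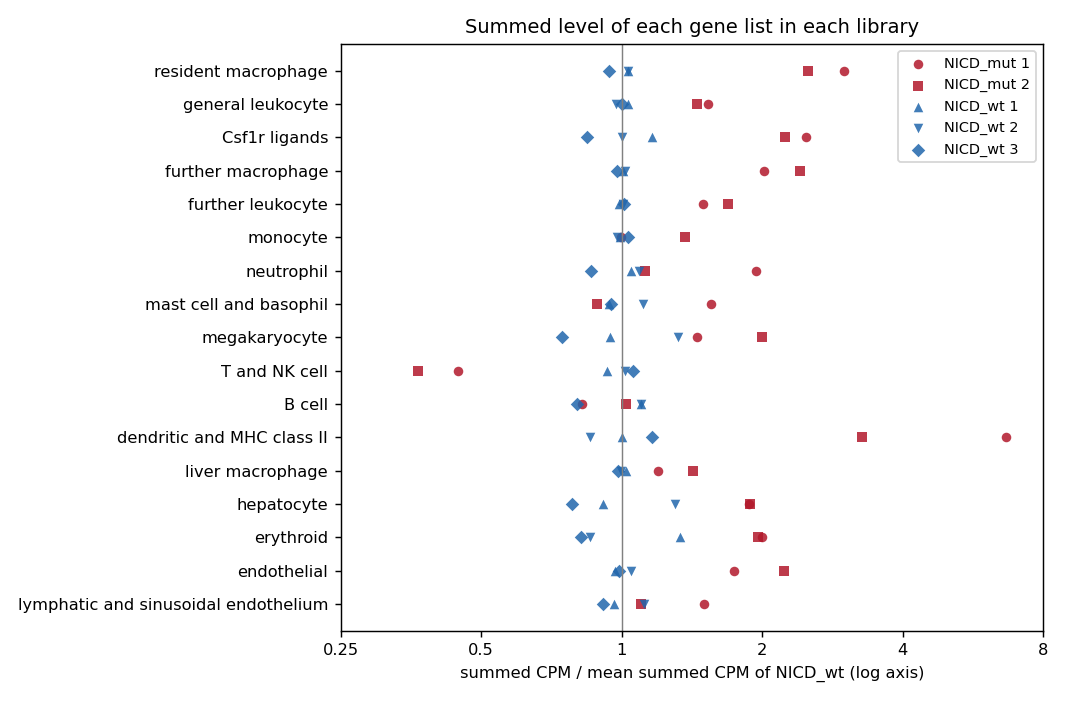
Summed CPM of each gene list in each library, divided by the mean of NICD_wt (log axis), with NICD_mut in red and NICD_wt in blue; the muscle list is not drawn. The dendritic and MHC class II list is highest in NICD_mut, and the endothelial and erythroid lists are also above NICD_wt. Most of the erythroid sum in NICD_mut is Alas2. Most of the T and NK cell sum is Gata3, and much of the hepatocyte sum in NICD_mut is Fgb. Most of the mast cell and basophil sum is Gata2, most of the liver macrophage sum Slc40a1, and most of the monocyte sum Plac8.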

How the data were processed

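Whole-kidney RNA of 2 NICD_mut and 3 NICD_wt libraries was measured by bulk RNA sequencing. The authors deposited estimated counts by gene symbol, which are whole numbers, and TPM, levels normalised for transcript length and depth. RSEM, Bowtie2 and mm10 were used, per the submitters' processing notes. Any tool version, annotation or strandedness was not given in the sources used here. When it counts, RSEM divides reads among similar genes by estimation, so near copies are uncertain.

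From the deposited counts, 12089 of 32793 genes had no count. Genes were filtered by filterByExpr (minimum count 10, minimum total 15), scaled by TMM (factors 0.9964 to 1.0054) and tested with the edgeR 4.0.16 quasi-likelihood test (R 4.3.3) without covariates, with Benjamini-Hochberg adjustment over all 15885 tested genes and a threshold of 0.05. SE is a standard error derived from that test, the absolute log2 change divided by the square root of its F statistic, and folds are fitted values. CPM is the count scaled to a common library size with the TMM factors. TPM was tested with limma 3.58.1 on log2(TPM + 1), for genes with a TPM of at least 1 in 2 libraries.

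Alternatives were DESeq2 1.42.0 (size factors, Wald test), library size alone, no filter, a stricter filter (50 counts in 2 libraries), TPM with a pseudocount of 0.1 or no filter, a replicate block, and leaving out libraries. The members, the lists, their split and the rule for named genes were chosen with earlier results of these data known. All members were named, and from each other list up to 4 genes of smallest adjusted p (2 if none had passed) plus a lone gene that went against its list, though not every gene so chosen is reported here. No count of the list of 36 was tested as a set. Coordinates are 1-based, from GENCODE vM21 (mm10) for genes and RefSeq (GRCm38.p6) for promoters. Plots used matplotlib 3.10.9 (Python 3.11.15).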

Additional observations from a re-analysis of the deposited data

How the results depend on the processing

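Of the 28 genes called, 19 passed under all alternatives that tested them and none changed sign; 27 genes called higher became 19 to 29, and Cd83 fell in every alternative. General leukocyte genes called higher numbered 7 instead of 11 with the replicate number as a block, and 7 to 11 with 1 library left out. In that replicate block fit 5535 genes were called instead of 7583, and 20 of the 36 were higher (13 resident macrophage). It changed 8 member calls to not passed (Trem2, Msr1, Pf4, Fcgr1, Tyrobp, Fcgr3, Spi1 and Cybb) and Aif1 to passed. Replicate numbers were shared, and whether they mark pairs could not be told. Deviations from the group mean correlated at 0.34 for NICD_mut 1 with NICD_wt 1 and at 0.149 for NICD_mut 2 with NICD_wt 2. NICD_mut 2 with NICD_wt 3 gave 0.234. The deviations of 2 NICD_mut libraries mirror each other, so these values are not independent and cannot decide it. The resident macrophage median was 1.52 with limma on log2(TPM + 0.1), and 1.35 in edgeR. Signs turned for 4 genes that did not pass: Cd163 (-0.14 to 1.78 with 1 library left out, -0.50 without NICD_mut 1 and NICD_wt 1), F13a1 (-0.03 without those 2), Itgam (-0.52 to 0.40 with 1 library left out, -0.36 without those 2) and Ptprc (0.14, 0.18 and 0.14 in 3 limma fits of TPM). The cause was not tested. With NICD_mut 1 or 2 left out, the remaining one is assumed to vary like NICD_wt. The 2 NICD_mut libraries differed more, with a chi-square per gene of 35.85 against 4.48 to 6.998 for pairs of NICD_wt libraries. Calls from those fits therefore leave out the NICD_mut spread. Genes under about 100 counts per library, such as Trem2, Fcgr1, Ncf4, Cd52 and P2ry12, have wide errors at this depth, and 2 NICD_mut libraries limit every estimate.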
